A study of Mus musculus with 9 samples.

Results

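The granule genes of cytotoxic T cells were followed in 9 expression arrays of mouse CD8+ T cells: the proteases granzyme A, B, C, K and M (Gzma, Gzmb, Gzmc, Gzmk, Gzmm), the pore-forming protein perforin (Prf1), the proteoglycan core serglycin (Srgn), the granule membrane protein Nkg7 and cathepsin W (Ctsw). They were taken by name, and a gene was used where a probe set of the array carried that gene alone. All 9 of 9 genes had such a probe set, 10 probe sets in all, out of 17097 genes measured with 28898 single-gene probe sets. Prf1 alone had more than 1 probe set, and its main value is that of the brighter one, judged by the mean of all arrays.

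The 5 Tsc1-/- samples came from C57BL/6 mice with floxed Tsc1 alleles (Tsc1-fl/fl) that were positive for Granzyme B-cre. The 4 WT samples came from C57BL/6 mice with the same floxed alleles and no cre. The Tsc1 protein is part of a brake on the growth-promoting kinase mTORC1. All samples were OVA-specific CD8+ T cells sorted from the spleen on day 9 after infection with Listeria monocytogenes, and each was measured on 1 array. The recombinase carries the name of Granzyme B, one of the genes described, and deletion is tied to cells in which its driver has been active. Whether that driver is the promoter of mouse Gzmb is not stated. Since every Tsc1-/- sample and no WT sample carried cre, the transgene and the loss of Tsc1 cannot be told apart. The cre line is not named in the sources used here, and whether the Gzmb probe set can also read a transcript of the transgene was not tested. The labels do not say whether each sample came from a separate animal, and p-values then measure only the spread between these samples.

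Cytotoxic T cells kill by releasing the contents of specialised lysosomes, the lytic granules, into the contact with a target cell. Perforin opens a passage through the target's membranes, granzymes enter and cleave proteins of the target, and serglycin holds the cargo in the granule through its sulfated sugar chains. In mice, activated CD8+ T cells acquire granzymes A and B and perforin as they become effectors, and granzyme C is typically a gene of strong or prolonged stimulation.

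The promoter windows of the granzyme genes whose levels did not overlap between genotypes, described next, are shown because Gzmb and Gzmc are neighbours in one gene cluster and Gzma lies in another. Each window runs from 250 bases before to 50 bases after the annotated start (RefSeq, GRCm38.p6), 5′ to 3′ on the strand of the gene. All 3 genes lie on the minus strand, Gzmb at chr14:56262285-56262584, Gzmc at chr14:56234608-56234907 and Gzma at chr13:113100932-113101231. Capitals mark the motifs found on either strand.
Gzmb: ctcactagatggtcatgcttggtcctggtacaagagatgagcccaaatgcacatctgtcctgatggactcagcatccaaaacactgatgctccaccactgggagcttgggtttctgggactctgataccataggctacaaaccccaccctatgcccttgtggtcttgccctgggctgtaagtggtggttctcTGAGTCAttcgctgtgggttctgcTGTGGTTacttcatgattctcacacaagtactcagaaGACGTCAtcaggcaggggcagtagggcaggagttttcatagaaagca
Gzmc: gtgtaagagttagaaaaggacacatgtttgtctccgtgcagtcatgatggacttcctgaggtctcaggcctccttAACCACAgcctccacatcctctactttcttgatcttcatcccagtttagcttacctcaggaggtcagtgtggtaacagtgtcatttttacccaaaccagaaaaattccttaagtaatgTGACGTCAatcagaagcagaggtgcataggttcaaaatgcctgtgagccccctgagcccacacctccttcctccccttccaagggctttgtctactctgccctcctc
Gzma: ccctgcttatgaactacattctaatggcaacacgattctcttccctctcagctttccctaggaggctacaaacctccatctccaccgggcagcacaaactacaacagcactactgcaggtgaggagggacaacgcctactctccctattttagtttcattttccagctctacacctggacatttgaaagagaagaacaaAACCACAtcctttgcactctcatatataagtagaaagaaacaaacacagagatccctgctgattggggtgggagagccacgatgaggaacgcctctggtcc
The motifs searched were TGAGTCA (bound by AP-1 factors), GACGTCA (the core of the cyclic AMP response element, CRE), TGTGGTT (bound by Runx factors) and GGTGTGA (bound by T-box factors). The Gzmb window held an AP-1 motif starting at position -58, a Runx motif at -34 and a CRE motif at 4, counted from the annotated start. The Gzmc window held a CRE motif on both strands, at -57 and -56, which overlap, and a Runx motif at -175. The Gzma window held a Runx motif at -51. Of 32851 windows of this length, 5.2% held the AP-1 motif, 3.21% the CRE motif, 5.27% the Runx motif and 3.98% the T-box motif. A match describes these letters and is not a bound site.

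Windows were matched for 8 of the 9 genes, and Ctsw had none. The T-box motif was found for Gzmk (at -75), for Nkg7 (at -13) and in 1 of 2 windows of Gzmm (at -189). Srgn had a Runx motif in 1 of 2 windows, and the Prf1 window held none of the 4 motifs. Along chromosome 14, Gzmb is the last of a run of 7 granzyme genes, in the order Gzme, Gzmd, Gzmg, Gzmn, Gzmf, Gzmc and Gzmb. The Gzmc window was 83.8% identical to that of Gzme and 83.4% to that of Gzmd, against 49.2% to that of Gzmb.

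Values are log2 expression levels, and differences are Tsc1-/- minus WT on that scale. Array medians lay between 5.97 and 6.05, and the median gene had a mean level of 6.34. Tsc1 itself, the targeted gene, read 7.40 ± 0.09 (SD, n = 5) in Tsc1-/- and 7.66 ± 0.09 (SD, n = 4) in WT, and a further Tsc1 probe set differed by -0.32 and the last by -0.01. Whether any of the 3 reads a floxed exon is not known from the files, which limits them as a check of the deletion. The defining genes of CD8+ T cells were bright in both genotypes, with Cd8a between 12.00 and 12.16 in Tsc1-/- and between 12.04 and 12.12 in WT. Ncr1, a receptor gene that defines natural killer cells, which share most granule genes, was dim. It read between 3.86 and 4.10 in Tsc1-/- and between 4.05 and 4.26 in WT. Of the other natural killer cell markers, Klrb1b, Klra7 and Klra8 also had mean levels below that of the median gene. Klrb1c, Klra9, Fcer1g and Tyrobp had mean levels above it, so the dim Ncr1 does not stand for the whole list. Over all 8 natural killer cell markers measured, of 12 listed, 6 differences were negative and 0 passed, and the mean level lay between 6.28 and 6.91 in Tsc1-/- and between 6.37 and 6.86 in WT. The macrophage and monocyte markers had a mean level between 6.33 and 6.66 in Tsc1-/- and between 6.53 and 7.26 in WT. Of the 14 measured, 13 had a negative difference, and 1 of them, Spic, passed the test. WT replicate 4 was the WT array with the lowest macrophage level, 6.53. All 8 measured B cell markers had a negative difference as well, with mean levels between 6.03 and 6.52 in Tsc1-/- and between 6.19 and 7.02 in WT. The same held for all 7 dendritic cell markers measured, all 6 platelet and erythroid markers and 9 of 11 neutrophil markers, of which 0 passed the test. The mean level of these lists lay, in this order, between 6.62 and 6.89, 6.14 and 7.06, and 5.70 and 7.60 in Tsc1-/-, and between 6.79 and 7.07, 6.63 and 6.88, and 6.40 and 7.23 in WT. The part of these cells in the results below was not tested. Fits that take the macrophage, B cell or natural killer cell level as a covariate are given. For macrophages and B cells, only WT replicate 4 lay within the Tsc1-/- range. Such a fit therefore separates their level from genotype poorly and loses precision.

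One array stood apart for granule genes. Tsc1-/- replicate 1 had the highest Gzmb and Gzmc of all 9 arrays, and the lowest Gzma, Gzmm and Lamp2 of the Tsc1-/- arrays. The differences of Gzmb, Gzmc, Gzma, Gzmm, Lamp2 and Eomes are given with and without it, and correlations only with it.

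Gzmb, the aspartate-specific protease that triggers apoptosis in target cells, rose in Tsc1-/- cells to 1.49 times its WT level and was the only one of the 9 genes to pass the test. Gzma and Gzmc were also higher in every Tsc1-/- array than in any WT array without passing. The levels of the other granzymes, perforin, serglycin, Nkg7 and cathepsin W overlapped between the genotypes. Across all genes, 166 of 17097 were higher at an adjusted p under 0.05 (0.971%) and 53 were lower (0.31%), so 1 higher and 0 lower of 9 is the members' count against these shares (limma; 2936 genes lay under an unadjusted p of 0.05). Of the 9, 7 had a positive difference, with a median of 0.18, where 48.2% of all genes had a positive difference and their median was -0.01. In such bulk samples, a larger share of cells with a transcript and more of it in each cell cannot be told apart.

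Gzmb read 12.40, 12.03, 12.11, 12.00 and 12.05 in Tsc1-/- replicates 1 to 5, against 11.49, 11.38, 11.50 and 11.78 in WT replicates 1 to 4. Replicate 1 was the highest Tsc1-/- array, WT replicate 4 the highest WT array, and the genotypes did not overlap. The means were 12.12 ± 0.16 (SD, n = 5) in Tsc1-/- and 11.54 ± 0.17 (SD, n = 4) in WT, a difference of 0.58 (SE 0.11, 95% interval 0.35 to 0.81, adjusted p = 0.0339, limma). It was larger than that of 99.2% of genes, and the exact permutation p over 126 splits of the arrays was 0.00794, the smallest this design can give. Without Tsc1-/- replicate 1 the difference was 0.51 (adjusted p = 0.0376, limma). Of the other arrays, each left out in turn, only WT replicate 4 left the call in place, and without any of the remaining 7 the adjusted p lay between 0.0579 and 0.119 (limma) at differences between 0.53 and 0.61. With the arrays' macrophage marker level as a covariate the difference was 0.43 (SE 0.16, adjusted p = 0.442, limma). With the B cell level it was 0.46 (SE 0.14, adjusted p = 0.279, limma).

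**Figure D1:**
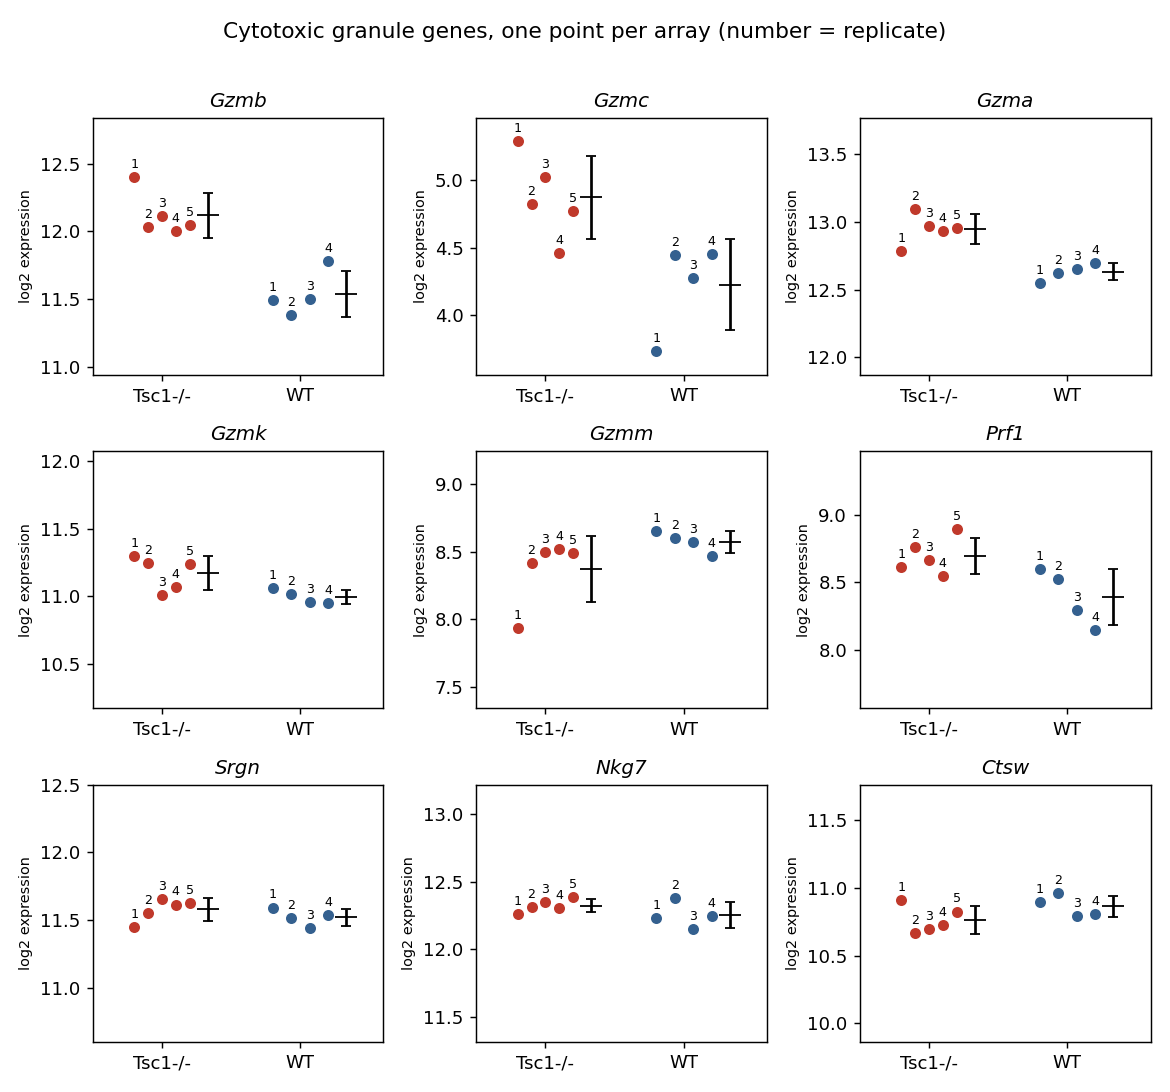
Log2 expression level of each of the 9 granule genes on every array, 1 panel a gene, with Tsc1-/- arrays (n = 5) left of WT arrays (n = 4); points are arrays and bars the genotype mean and SD. The Gzmb points lie between 12.00 and 12.40 in Tsc1-/- and between 11.38 and 11.78 in WT, and Gzma and Gzmc also show no overlap.

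Gzmc, a granzyme found in rodents and encoded beside Gzmb, read 5.29, 4.83, 5.02, 4.46 and 4.77 in Tsc1-/- replicates 1 to 5, against 3.74, 4.44, 4.27 and 4.45 in WT replicates 1 to 4. Tsc1-/- replicate 1 was highest and WT replicate 1 lowest, and the genotypes were separated only by the narrow gap between Tsc1-/- replicate 4 and WT replicate 4. The difference of 0.65 (SE 0.17, 95% interval 0.27 to 1.02) was 1.57-fold and did not pass the test (adjusted p = 0.0812, limma; exact permutation p = 0.0159). Its mean level and every array but Tsc1-/- replicate 1 lay below the lower quartile of genes, 5.25, where no detection call was at hand to place them above background. Without Tsc1-/- replicate 1 the difference was 0.54 (adjusted p = 0.123, limma).

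Gzma, a protease of tryptase type, read 12.78, 13.09, 12.97, 12.94 and 12.96 in Tsc1-/- replicates 1 to 5, against 12.55, 12.62, 12.65 and 12.70 in WT replicates 1 to 4. Tsc1-/- replicate 1 was the lowest of its genotype, yet lay above every WT array. The means were 12.95 ± 0.11 (SD, n = 5) in Tsc1-/- and 12.63 ± 0.06 (SD, n = 4) in WT, a difference of 0.32 (SE 0.08, 95% interval 0.14 to 0.49), 1.25-fold, which did not pass (adjusted p = 0.0703, limma; exact permutation p = 0.0159). Without Tsc1-/- replicate 1 the difference was 0.36 (adjusted p = 0.0508, limma). Gzmb, Gzmc and Gzma were thus 3 of 9 members higher in every Tsc1-/- array, where 5.08% of all genes were.

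Gzmk, a tryptase encoded next to Gzma, read 11.30, 11.25, 11.01, 11.07 and 11.24 in Tsc1-/- replicates 1 to 5, against 11.06, 11.02, 10.96 and 10.95 in WT replicates 1 to 4. Tsc1-/- replicates 1, 2, 4 and 5 lay above all WT arrays, replicate 4 barely, and the genotypes overlapped. The difference of 0.18 (95% interval -0.00 to 0.36) did not pass (adjusted p = 0.299, limma; exact permutation p = 0.0556).

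Gzmm, which cleaves after methionine and is encoded outside both clusters, read 7.94, 8.41, 8.50, 8.52 and 8.49 in Tsc1-/- replicates 1 to 5, against 8.65, 8.60, 8.57 and 8.46 in WT replicates 1 to 4. Tsc1-/- replicate 1 lay far below the rest, which were close to the WT arrays. The difference of -0.20 (95% interval -0.46 to 0.05) did not pass (adjusted p = 0.404, limma), and without that array it was -0.09.

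Prf1 gave an answer that depended on the probe set. Its main probe set read 8.61, 8.76, 8.67, 8.55 and 8.89 in Tsc1-/- replicates 1 to 5, against 8.60, 8.53, 8.29 and 8.15 in WT replicates 1 to 4. Every Tsc1-/- array except replicate 4 lay above all WT arrays, and the difference was 0.30 (SE 0.11, 95% interval 0.07 to 0.54, adjusted p = 0.170, limma; exact permutation p = 0.0238). The other probe set read 8.52, 8.56, 8.42, 8.39 and 8.53 in Tsc1-/-, against 8.62, 8.38, 8.51 and 8.46 in WT, a difference of -0.01 (exact permutation p = 0.873). The mean of both probe sets differed by 0.15 (adjusted p = 0.365, limma). For the main probe set the difference was 0.51 with the macrophage level as a covariate and 0.43 with the B cell level (adjusted p = 0.358 and 0.320, limma), and 0.18 with each array's trend on level and gene length removed. The genotypes thus overlapped on both probe sets.

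Srgn read between 11.45 and 11.66 in Tsc1-/- and between 11.44 and 11.59 in WT, with a difference of 0.06 (95% interval -0.11 to 0.22, adjusted p = 0.749, limma). Nkg7, needed for granule release, read between 12.26 and 12.39 in Tsc1-/- and between 12.15 and 12.38 in WT, with a difference of 0.07 (95% interval -0.09 to 0.23, adjusted p = 0.677, limma). Ctsw, a cysteine protease of cytotoxic lymphocytes, read between 10.66 and 10.91 in Tsc1-/- and between 10.79 and 10.96 in WT, with a difference of -0.10 (95% interval -0.27 to 0.07, adjusted p = 0.566, limma). The genotypes overlapped for all 3. The intervals hold the differences compatible with these arrays, and they are not a limit of detection.

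**Figure D2:**
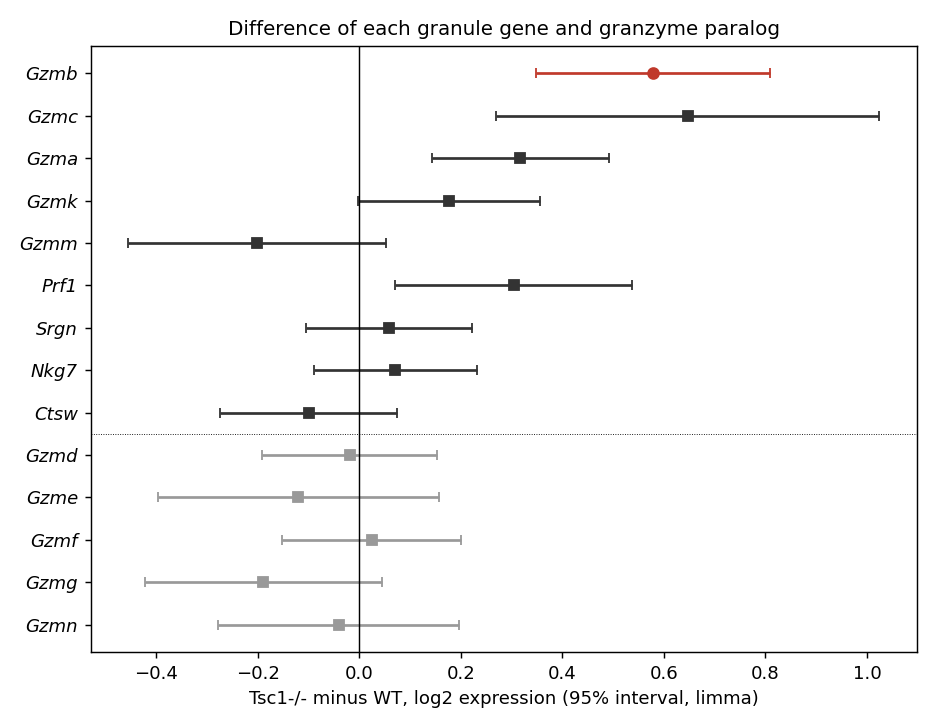
Difference (Tsc1-/- minus WT, log2) of each granule gene and, under the dotted line, of the granzyme paralogs, with the 95% interval from limma (n = 5 Tsc1-/- and 4 WT arrays). Gzmb at 0.58 and Gzmc at 0.65 lie farthest above 0, and the intervals of Gzmk, Gzmm, Srgn, Nkg7 and Ctsw include 0.

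Seen array by array against the WT mean, the granule genes did not move as one. Over the 9 arrays, Pearson's r with Gzmb was 0.844 for Gzmc and 0.713 for Gzma, but with each genotype's mean removed it was 0.582 and -0.359. Gzmm had an r of -0.835 with Gzmb after the means were removed, in which Tsc1-/- replicate 1, high in Gzmb and low in Gzmm, takes part. These values describe 9 arrays that share their genotypes.

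**Figure D3:**
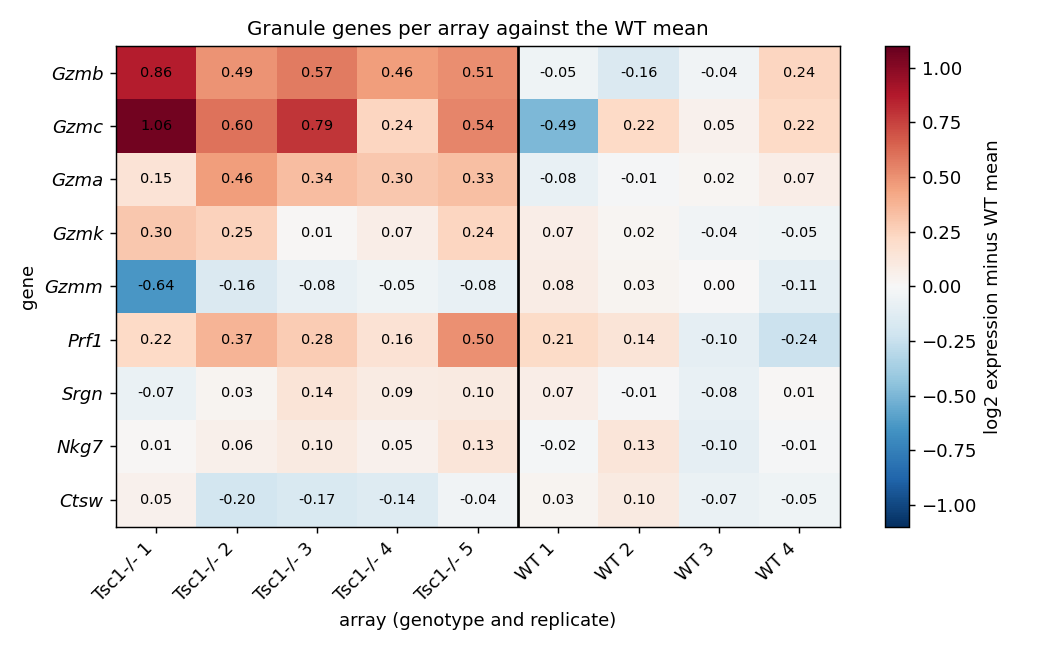
Log2 level of each granule gene on each array minus the gene's WT mean, with the 5 Tsc1-/- arrays left of the 4 WT arrays. Gzmb, Gzmc, Gzma, Gzmk, Prf1 and Nkg7 are above 0, the WT mean, on every Tsc1-/- array. Of these, only Gzmb, Gzmc and Gzma are higher on every Tsc1-/- array than on any WT array. Tsc1-/- replicate 1 is the array with the high Gzmb and low Gzmm.

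The 8 genes whose levels followed Gzmb most closely, among 8251 named genes at or above the median level, had an r between 0.958 and 0.975 over the 9 arrays, and between 0.790 and 0.892 with genotype means removed. These 8 were picked by their r with Gzmb over both genotypes, between which Gzmb differed. A difference in the same direction was thus favoured by the choice, and the p-values of these 8 are no separate support. The choice on the same arrays also favoured a high r with genotype means removed. Gzmb lay farthest from its genotype mean on Tsc1-/- replicate 1 (12.40 against 12.12) and WT replicate 4 (11.78 against 11.54). Spc24 (difference 0.61, adjusted p = 0.0359, limma) and Cenpe (0.70, adjusted p = 0.0485, limma), both proteins of the kinetochore, rose. Spc24 passed without Tsc1-/- replicate 1 or WT replicate 4, and with any of the other arrays left out its adjusted p lay between 0.0561 and 0.125 (limma). Cenpe passed only without WT replicate 4, and without any other array its adjusted p lay between 0.0737 and 0.154 (limma). With the macrophage level as a covariate the difference was 0.37 for Spc24 and 0.29 for Cenpe (adjusted p = 0.494 and 0.672, limma). Gtse1, a protein of the G2 and S phases, differed by 0.42 (adjusted p = 0.0571, limma). Ndufb8 and Ndufa5, subunits of respiratory complex I, differed by 0.34 and 0.32 without passing. Cox17, which delivers copper to cytochrome oxidase, the selenoprotein gene Selenoh and the splicing factor Srsf3 differed by 0.17, 0.35 and 0.18 and did not pass.

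The paralogs of the chromosome 14 cluster were dim. Gzmd, Gzme, Gzmf, Gzmg and Gzmn all had mean levels below the lower quartile of genes, and 0 of 5 passed the test, with 1 positive and 4 negative differences. The largest in size was that of Gzmg, -0.19 (adjusted p = 0.393, limma), which read between 3.25 and 3.83 in Tsc1-/- and between 3.65 and 3.86 in WT. Gzmf, next to Gzmc, read between 3.97 and 4.13 in Tsc1-/- and between 3.93 and 4.23 in WT. The main probe sets of Gzmd and Gzme are of a type that can also detect related transcripts, so these values may be shared between paralogs. The other probe sets of Gzmd and Gzme, not of that type, were dim as well, with means of 2.18 and 2.95. Their differences were -0.01 and -0.08.

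Of 14 listed granule proteases, inhibitors and granule proteins, 13 were measured and 1 passed, which was higher: Lamp2, a protein of the lysosomal membrane. It read 7.58, 8.34, 8.34, 8.22 and 8.43 in Tsc1-/- replicates 1 to 5, against 7.54, 7.27, 7.45 and 6.92 in WT replicates 1 to 4. Tsc1-/- replicate 1 sat just above the highest WT array and the other 4 Tsc1-/- arrays well above it. Lamp2 rose by 0.89 (SE 0.17, 95% interval 0.51 to 1.26, adjusted p = 0.0359, limma), and by 1.04 without Tsc1-/- replicate 1 (adjusted p = 0.00793, limma). With any array but that one or WT replicate 4 left out, its adjusted p lay between 0.0554 and 0.110 (limma), and with the macrophage level as a covariate it was 0.282 at a difference of 1.07. The remaining 12 had 4 positive and 8 negative differences. Named after their values were seen, Ctsc, the protease that activates granzymes, read between 9.41 and 9.84 in Tsc1-/- and between 9.12 and 9.37 in WT, a difference of 0.40 (adjusted p = 0.0661, limma), and Cst7, an inhibitor of Ctsc, differed by -0.10. Of the other cathepsins, also named after their values were seen, Ctsd differed by 0.25, Ctsl by -0.05 and Ctsb by -0.14. Ctss differed by -0.32, Ctsz by -0.39 and Ctsh by -0.40, and none of these cathepsins passed (adjusted p between 0.0590 and 0.904, limma). Each of them was lowest among the WT arrays on WT replicate 4, the WT array with the lowest macrophage level. There Ctss read 9.88, Ctsz 8.20 and Ctsh 5.05. The part of macrophages or other cells in these differences was not tested.

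The mannose 6-phosphate route carries granzymes to the granule. Of its 5 listed genes 3 were measured and 0 passed, with M6pr at 0.15, Gnptab at 0.15 and Nagpa at -0.05 (adjusted p = 0.329, 0.411 and 0.839, limma). Of 20 listed genes that build the sugar chains of serglycin, 19 were measured and 0 passed, 10 with positive and 9 with negative differences. The 3 with the smallest p were Slc26a2, a sulfate carrier, at -0.27 (adjusted p = 0.117, limma), Slc35b2, which carries the activated sulfate, at -0.27, and Chpf, which takes part in chondroitin chain building, at -0.22.

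Of 21 listed regulators of granule genes, 20 were measured and 1 passed, which was lower: Eomes, a T-box factor of cytotoxic and memory T cells. It read 8.44, 8.10, 8.07, 7.97 and 7.93 in Tsc1-/- replicates 1 to 5, against 8.91, 8.62, 8.59 and 8.62 in WT replicates 1 to 4, with no overlap. Eomes fell by 0.58 (SE 0.11, adjusted p = 0.0359, limma). Without Tsc1-/- replicate 1 its difference was -0.67 (adjusted p = 0.0146, limma). With any array but Tsc1-/- replicate 1 or WT replicate 4 left out, its adjusted p lay between 0.0554 and 0.125 (limma), and with the macrophage level as a covariate it was 0.441 at a difference of -0.47. Its relative Tbx21 differed by 0.00, Prdm1 by 0.02 and Runx3 by -0.10, all 3 named after their values were seen, and none passed. Over the 20 regulators, 8 differences were positive and 12 negative.

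**Figure D4:**
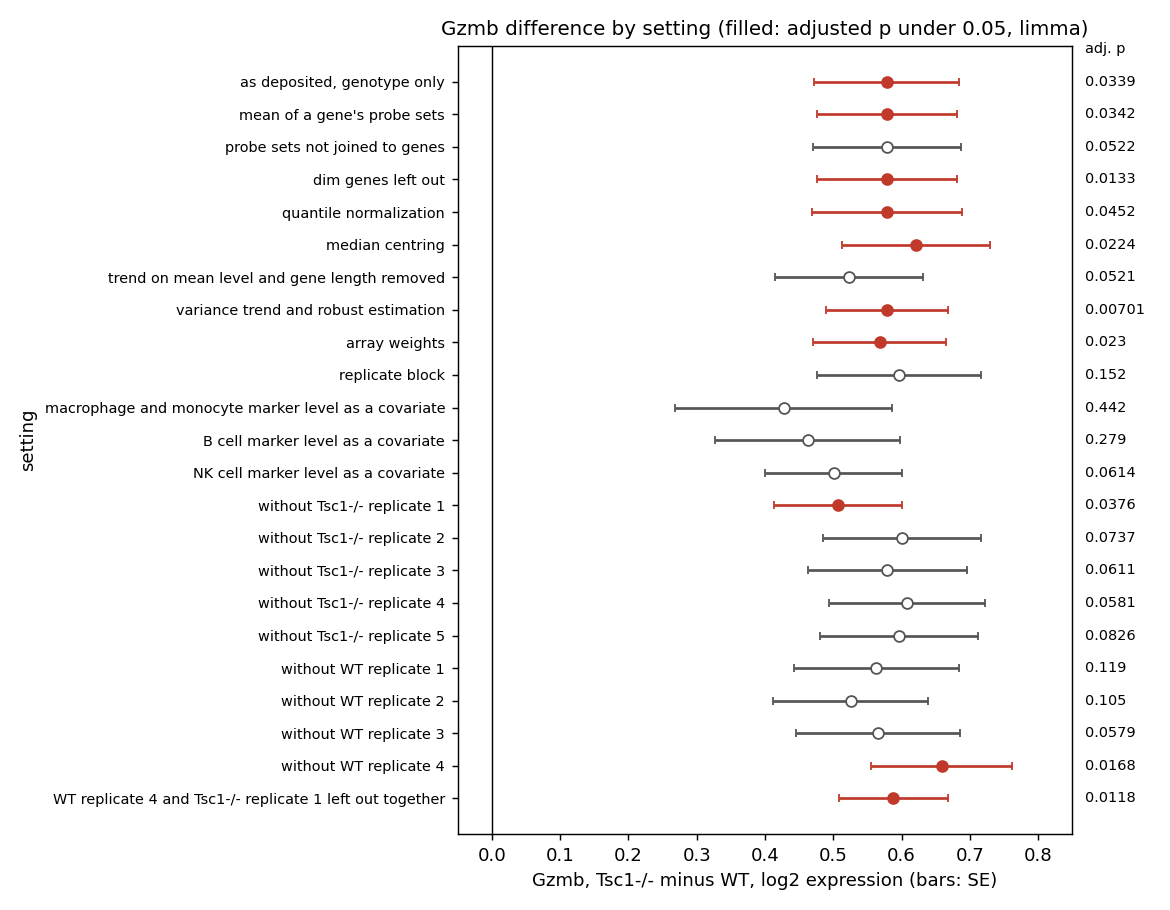
Difference of Gzmb (Tsc1-/- minus WT, log2) under each processing setting, with bars of 1 SE and filled and open points for settings in which it did or did not pass an adjusted p under 0.05. All points lie between 0.43 and 0.66, on the same side of 0.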

How the data were processed

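The deposited values are log2 expression levels of probe sets. Per the submitters' processing notes, the authors used RMA and Partek 6.5, whose options are not stated there. RMA gives every array the same distribution of probe signals, which hides a shift common to most genes. Per the labels' protocols, 12 ng of RNA per sample was amplified before labelling.

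Probe sets were named from the platform annotation: of 45037, 28898 had 1 gene, 551 several and 15588 have no name here. RefSeq (GRCm38.p6) supplied current symbols by Entrez identifier for 28689 probe sets and the promoter sequences. Each gene was represented by its brightest single-gene probe set, by the mean of 9 arrays, with no filter on dim genes. Genotypes (5 Tsc1-/- and 4 WT arrays) were compared in R 4.3.3 with limma 3.58.1 (lmFit, then eBayes), Benjamini-Hochberg adjusted over 17097 genes, threshold 0.05, and tested on simulated data. Exact two-sided permutation tests of single probe sets, unadjusted, used all 126 splits. Intervals are limma's for 1 gene at 95%. The number of arrays limits the precision.

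The members and lists were chosen with earlier results of these data known. Named were all members and paralogs, from each other list the genes past the threshold or else up to 3 with the smallest p, and the 8 genes most like Gzmb. Genes said to be named after their values were seen fall outside this rule. Deviations of same-numbered arrays had correlations between -0.098 and 0.093, and those of other pairs lay between -0.094 and 0.1. This does not settle whether the numbers mark a batch. Replicate numbers were not used as pairs in the reported fit. Alternatives were 14 changes of processing or design and each array left out in turn. Figures used Python 3.11.15 and matplotlib 3.10.9.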

Additional observations from a re-analysis of the deposited data

Results flagged for a closer look

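Some arrays lay far from the rest of their genotype for a gene, by the gap to the nearest array relative to the range of the group. Of 100 genotype groups of 50 genes, 10 were picked out this way, and chance alone picks out roughly 5% of groups. Among the granule genes, Tsc1-/- replicate 1 read 12.40 for Gzmb, where the other Tsc1-/- arrays read 12.00 to 12.11, and 7.94 for Gzmm, where they read 8.41 to 8.52. The same array read 7.58 for Lamp2, where the others read 8.22 to 8.43, and 8.83 for Stat5a, where they read 9.22 to 9.30. Of the other Tsc1-/- arrays, replicate 3 read 3.97 for the dim paralog Gzmf, where the rest read 4.11 to 4.13, and replicate 5 read 9.95 for M6pr, where the rest read 9.72 to 9.78.

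WT replicate 1 read 8.91 for Eomes, where the other WT arrays read 8.59 to 8.62, 9.06 for Stat5a, where they read 9.00, and 3.15 for the dim paralog Gzmn, where they read 3.48 to 3.49. WT replicate 3 read 2.14 for the dim paralog Gzmd, where the other WT arrays read 2.35 to 2.39. Among the arrays the array weights of limma were lowest for Tsc1-/- replicate 1 at 0.627 and, next, for WT replicate 4 at 0.769.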

How the results depend on the processing

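By their main probe sets, or by averaged probe sets, none of the 9 granule genes changed direction in any setting run, while the other Prf1 probe set differed by -0.01. Gzmb passed in 9 of 22 other settings, Gzma in 5 of 22 and Gzmc in 1 of 21. Lamp2 and Eomes also kept their direction and passed in 9 and 10 of 22. With probe sets not joined to genes, 69 of 45037 probe sets were higher, 0 members passed, and Gzmb differed by 0.58 (adjusted p = 0.0522, limma). Leaving out dim genes, Gzmc among them, gave 542 higher and 140 lower of 8549 genes, and 2 members (Gzmb and Gzma). These counts are thus not on the same base as the 17097 genes of the reported fit. Quantile normalization gave 58 higher and 32 lower, a higher share of 64.4% against 75.8% in the reported fit. Median centring gave 381 higher, a share of 87%, and 2 members. Removing each array's trend on level and gene length gave 49 of 16936 genes higher, which was 52.7% of the calls. It gave 0 members, and Gzmb 0.52 (adjusted p = 0.0521, limma). A variance trend with robust estimation gave 509 higher, 171 lower and 3 members (Gzma, Gzmb and Gzmc), array weights 340, 125 and 2, and an adjusted p under 0.1 gave 529, 209 and 3. With the macrophage level as a covariate 0 genes were higher and 0 lower (limma; 1608 at unadjusted p under 0.05), 0 members passed and Gzmb was 0.43 (adjusted p = 0.442). With the B cell level these were 0, 0 (1785), 0 and 0.46 (adjusted p = 0.279), and with the natural killer cell level 15, 6, 0 and 0.50 (adjusted p = 0.0614). Without WT replicate 4 and Tsc1-/- replicate 1 together, 145 were lower and 2 members passed. Leaving out 1 array at a time gave 1 to 297 higher, 1 to 159 lower, 0 to 1 members, and Gzmb 0.51 to 0.66. The cause of these changes was not tested. As a replicate block, the replicate number gave 0 higher, 0 lower (limma; 2354 at unadjusted p under 0.05), 0 members and Gzmb 0.60 (adjusted p = 0.152). It uses only the 4 numbers present in both genotypes, and not every array correlated best with its own number.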
